A study of Mus musculus with 6 samples.

Results

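The variable segments of the T cell receptor alpha and beta chains were read in splenic regulatory T cells (Tregs) of mice with and without a deletion of the transcription factor CREB. The members were all transcript clusters, the probe groups of a whole-transcript Affymetrix array, whose only gene symbol in the platform annotation starts with Trav (alpha chain) or Trbv (beta chain). These were 106 of 65956 clusters, with 85 for the alpha chain and 21 for the beta chain, and each carried a different symbol. RefSeq lists 130 Trav and 35 Trbv genes, so many segments had no cluster of their own, and 22 further clusters that name a segment together with another symbol were not counted as members.

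Each T cell assembles its receptor by joining gene segments. An alpha chain takes a Trav and a Traj segment, and a beta chain takes a Trbv, a Trbd and a Trbj segment, before the constant region is spliced on. A mature T cell thus transcribes a productive chain from few of its many variable segments, so the signal of a segment in sorted cells is a sum over many clones, and near-identical segments share probes. Tregs carry alpha beta receptors with a wide choice of segments. In these bulk samples, fewer cells using a segment and less receptor RNA per cell cannot be told apart.

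The CREB-KO group held 3 arrays from Foxp3creCREBfl/fl mice, in which a Cre recombinase placed behind an IRES in the Foxp3 gene removes floxed Creb1 in cells that express Foxp3. The CREB-WT group held 3 arrays from matched WT mice, given in the study's methods as CREBfl/fl animals without Cre, so the presence of Cre and the loss of CREB cannot be told apart. All animals were untreated B6 males 10 to 12 weeks old, with a separate individual for each array. CD4+CD25+ cells were enriched from spleen on magnetic columns, and CD4+CD25+Nrp1+ cells were then sorted. The values are deposited log2 signals, and the number of arrays limits the precision of every comparison.

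Array medians ranged from 4.55 to 4.58 in CREB-KO and from 4.48 to 4.53 in CREB-WT. Of 15 Treg marker genes, 13 had a cluster of their own, and all 13 were above the array median on every array. Foxp3 and the sort marker Nrp1 were not among these 13. The Creb1 cluster read 14.10, 14.39 and 14.79 on the arrays labelled CREB-KO, against 13.30, 13.94 and 13.34 on those labelled CREB-WT, which goes against the direction of a deletion. The exons its probes cover are not known from the sources used here, and groups are named by their labels throughout. Macrophage and dendritic cell markers were also present: 13 of 16 were above the array median on all arrays and 2 on none, and their mean signal ranged from 5.76 to 7.38 on the CREB-KO arrays and from 6.46 to 7.84 on the CREB-WT arrays.

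Almost every measured variable segment carried signal. On all 6 arrays, 83 of 85 alpha segments (97.6%) and 19 of 21 beta segments (90.5%) lay above the array median, against 42.1% of all clusters. Above the 75th percentile of every array were 74 alpha segments (87.1%) and 15 beta segments (71.4%), against 21.4% of all clusters. The 95th percentile was exceeded on every array by 9 alpha segments (10.6%) and 3 beta segments (14.3%), against 4.11% of all clusters. Probes differ in how brightly they report the same amount of RNA, so the order of the segments is an order of signals and not of use by T cells.

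The segments without such signal were few. Trbv10 read 3.07, 3.38 and 3.49 on the CREB-KO arrays and 3.75, 3.56 and 4.21 on the CREB-WT arrays, below the median of each. The alpha segments Trav5d-3 and Trav5n-3 had identical values on all arrays, averaging 3.93 ± 0.030 on the CREB-KO arrays and 4.18 ± 0.23 on the CREB-WT arrays (SD, n = 3 each), also below every array median. RefSeq annotates these 3 segments as pseudogenes. The other RefSeq pseudogenes among the members were above the median on every array, with means over the 6 arrays of 6.19 for Trav3d-2, 7.96 for Trav4d-2 and 8.05 for Trbv29. Trav3d-2 differed by at most 0.182 on any array from its copy Trav3n-2, which RefSeq does not annotate as a pseudogene. Signal of the pseudogene and of the copy cannot be told apart there. Trbv21 passed the median on 5 of 6 arrays and missed it on the CREB-WT array 1, at 4.29.

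Among the beta segments, means over the 6 arrays ran from 3.58 to 15.57 with a median of 9.86. Trbv20 had the highest, with 15.42, 15.94 and 15.57 on the CREB-KO arrays against 15.47, 15.07 and 15.96 on the CREB-WT arrays. Its groups overlapped fully, and the spread within each group exceeded the difference of 0.14 ± 0.26 (limma, SE). Trbv2 followed with 14.11, 14.96 and 14.86 on the CREB-KO arrays and 15.24, 15.15 and 14.80 on the CREB-WT arrays, with the CREB-KO array 1 below the other 5. After Trbv3 and Trbv13-2, at 13.35 and 12.85, came Trbv31, a segment that lies on the far side of the beta constant regions in inverted orientation, at 12.14. Trbv15, Trbv19 and Trbv12-2 completed the 8 highest, with means of 11.89, 11.59 and 11.32.

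**Figure D1:**
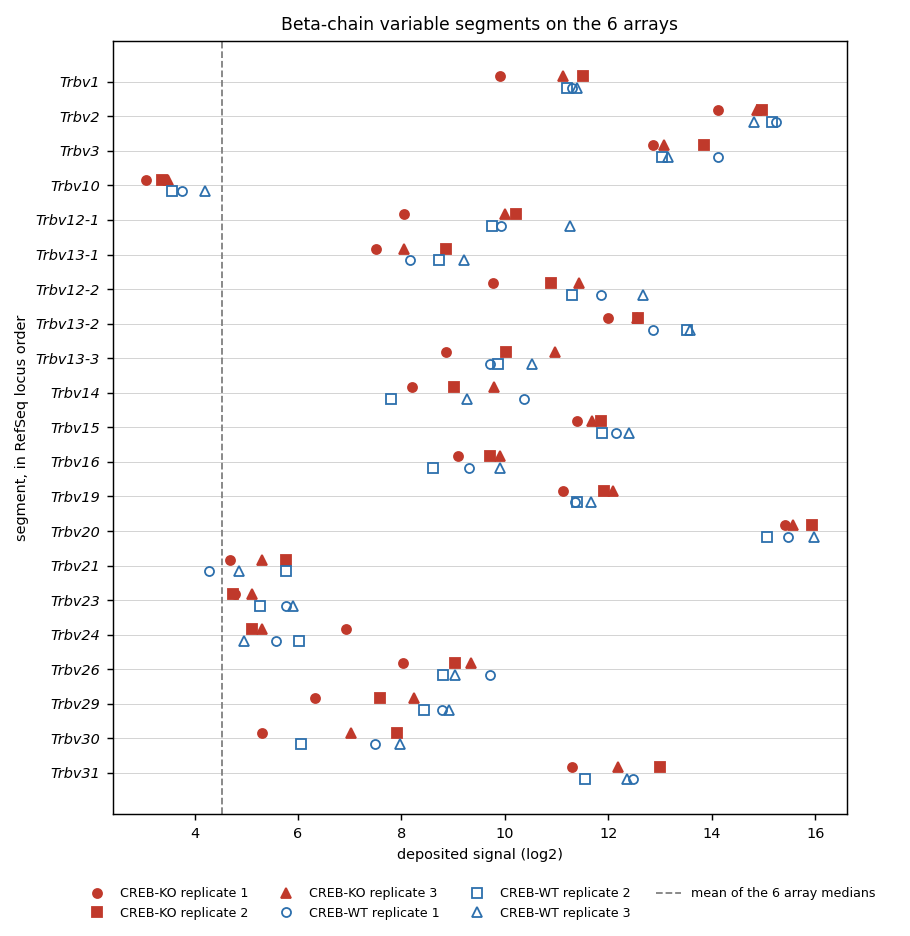
Deposited log2 signal of the 21 beta segments (rows, in RefSeq locus order) on each array, with filled red symbols for CREB-KO above open blue symbols for CREB-WT and a dashed line at the mean of the 6 array medians. The CREB-KO array 1 (red circle) is the lowest of the 6 arrays for 15 of 21 segments, and only Trbv10 lies wholly below the dashed line.

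The alpha segments spanned means of 4.05 to 15.24 with a median of 10.58. Their highest signal was that of Trav12d-2, at 14.12, 15.49 and 15.53 on the CREB-KO arrays and 15.28, 15.14 and 15.90 on the CREB-WT arrays. The CREB-KO array 1 stood more than a log2 unit below every other array for this segment, and the remaining values of the groups overlapped. Its copies Trav12-2 and Trav12n-2 came next with means of 13.85 and 13.73. Trav4n-4, Trav7n-4, Trav11d, Trav9-1 and Trav7d-2 completed the 8 highest, with means between 12.82 and 13.53. Trav11d belongs to the subgroup that forms the invariant alpha chain of mouse NKT cells. Its values were 12.45, 12.52 and 13.08 on the CREB-KO arrays and 13.73, 13.52 and 12.78 on the CREB-WT arrays, which overlap.

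Many alpha segments are near-identical copies, since blocks of the C57BL/6 alpha locus are repeated and the letters d and n in a symbol mark the copies. The 85 alpha segments fell into 19 subgroups, and 66 of them belonged to 27 sets with the same name apart from the letter. No beta segment had such a copy. Of 51 pairs of alpha copies, 3 had identical values on all arrays: Trav7d-5 with Trav7n-5, Trav5d-3 with Trav5n-3 and Trav14d-2 with Trav14n-2. Trav9d-3 and Trav9n-3 differed by at most 0.070 on any array. Trav12n-1 was identical on all arrays to a cluster annotated with Trav12-1, Trav12d-1 and Trav12n-1 together. The 85 alpha clusters therefore gave 82 distinct profiles, and members with shared names are not independent measurements.

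Copies mostly followed each other across the arrays even where their levels differed. The SD over arrays of the gap between copies had a median of 0.210 over the 51 pairs, against 0.447 over 203 pairs of the same subgroup and 0.588 over 3316 pairs of different subgroups. Trav9-1, for example, read 11.37, 14.10 and 13.58 on the CREB-KO arrays and 12.28, 12.12 and 13.47 on the CREB-WT arrays. Trav9n-1, a copy with a signal lower by 2.85 on average, read 8.61, 11.05 and 10.69 on the CREB-KO arrays and 9.68, 9.15 and 10.63 on the CREB-WT arrays. In both, the CREB-KO array 1 was lowest and the CREB-KO array 2 highest. The Trav4-3 set ran the other way on the CREB-KO array 1. Trav4d-3 read 11.94, 9.95 and 9.89 on the CREB-KO arrays, against 9.89, 9.30 and 10.36 on the CREB-WT arrays. Some copies did not follow each other. The SD of the gap exceeded 0.588 for Trav4d-2 with Trav4-2 (0.861), Trav8d-2 with Trav8-2 (0.785), Trav6d-4 with Trav6-4 (0.721) and Trav11d with Trav11n (0.683).

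**Figure D2:**
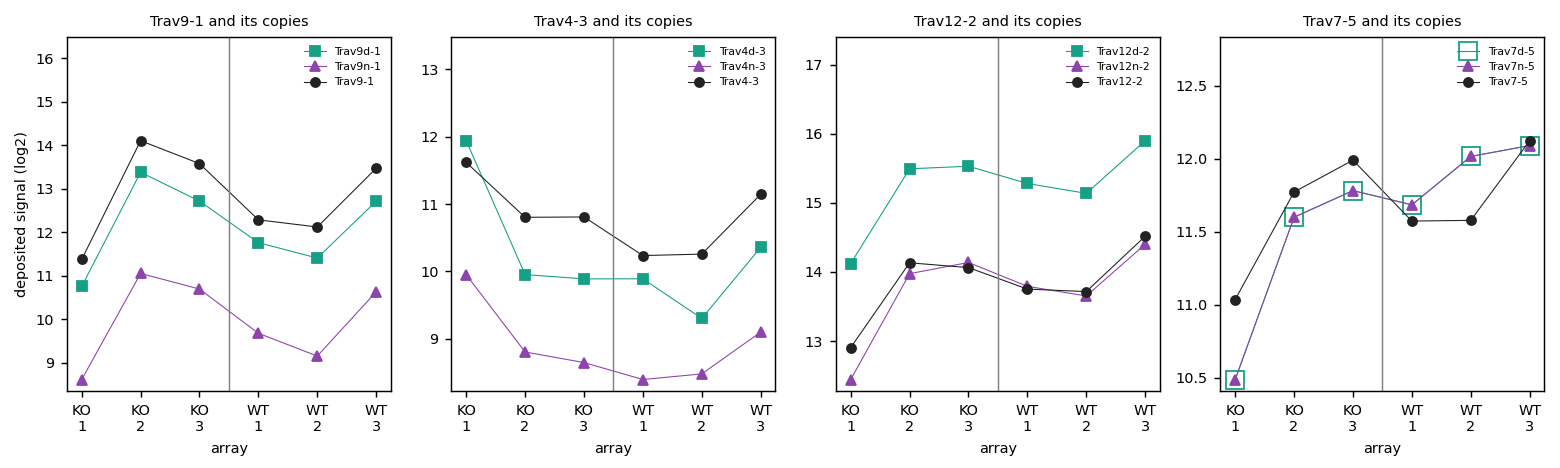
Deposited log2 signal of 4 sets of alpha copies on the 3 CREB-KO arrays (left of the vertical line) and the 3 CREB-WT arrays (right), with a marker for each copy and thin lines that only link the values of 1 segment. Trav9-1 and its copies are lowest on the CREB-KO array 1, Trav4-3 and its copies are highest there, and Trav7d-5 (open squares) coincides with Trav7n-5 on every array.

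The variable segments differed more between animals of the same group than other clusters did. The pooled SD within groups had a median of 0.469 log2 units over the alpha segments and 0.597 over the beta segments, against 0.225 over all clusters. Because spread depends on signal, the comparison was repeated at like levels. In the level range that holds the middle of the alpha segments, 43 alpha segments had a median SD of 0.472, against 0.300 for 4582 other clusters. In the range of the middle beta segments, 11 beta segments had a median of 0.608, against 0.306 for 7575 other clusters. These medians are descriptions without a test. For other rearranged segments the medians, not matched for level, were 0.827 over 18 Traj, 0.445 over 113 Ighv and 0.400 over 86 Igkv clusters. They were 0.411 over 5 Trdv clusters and 0.181 over 3 Trgv clusters, the last below the 0.225 of all clusters.

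The widest spread among alpha segments above the array median was that of Trav9-1 (pooled SD 1.15) and its copies Trav9d-1 (1.08) and Trav9n-1 (1.07). Trav11n followed at 1.00, with 11.39, 11.24 and 11.62 on the CREB-KO arrays and 13.66, 11.45 and 11.06 on the CREB-WT arrays. That value came from the CREB-WT array 1, which stood over 2 log2 units above the other 5. Trav8d-2 had a pooled SD of 0.91. Among the beta segments, Trbv30 (1.17), Trbv14 (1.07), Trbv12-1 (1.02), Trbv13-3 (0.80) and Trbv24 (0.80) had the widest spread. Trbv30 read 5.31, 7.92 and 7.02 on the CREB-KO arrays and 7.48, 6.05 and 7.97 on the CREB-WT arrays, so that the CREB-KO array 1 was lowest and the other arrays of the groups overlapped. At the narrow end, Trav15n-2 lay between 6.88 and 7.12 on all 6 arrays, with a pooled SD of 0.082.

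**Figure D3:**
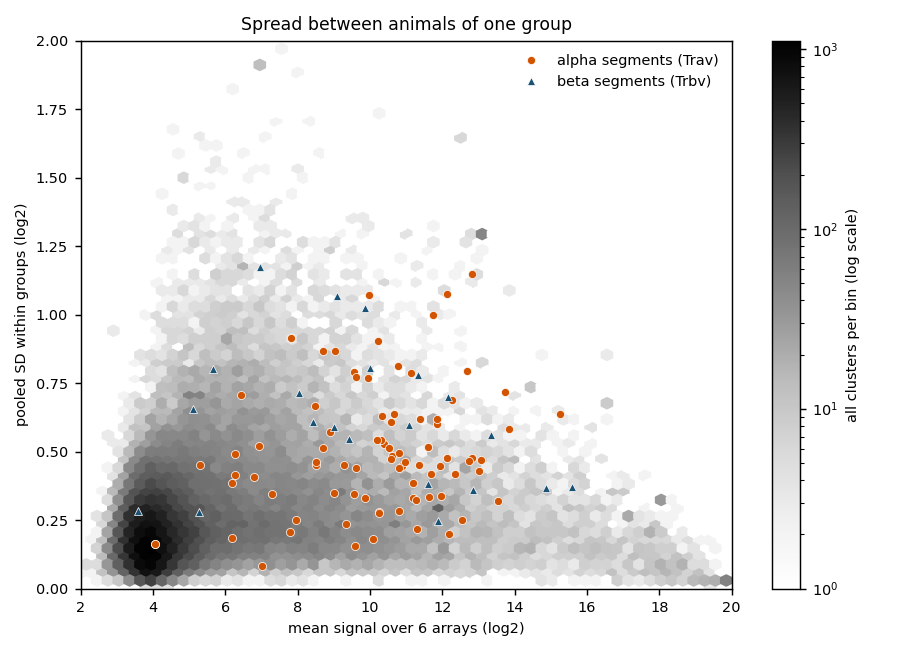
Pooled SD within groups (log2) against the mean signal over 6 arrays (log2) for alpha segments (orange circles), beta segments (blue triangles) and all clusters (grey bins, shaded on a log scale; 57 clusters lie outside the plotted range). At like signal most segments lie above the dense grey band, with Trbv30 at 1.17 and Trav9-1 at 1.15 the highest members.

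Part of this spread was common to many segments of an array. Taken as deviations from each segment's mean over the 6 arrays, the median alpha segment stood at -0.31, 0.23 and 0.22 on the CREB-KO arrays 1 to 3 and at -0.21, -0.20 and 0.25 on the CREB-WT arrays 1 to 3. The median beta segment stood at -0.84, 0.10 and 0.046 on the CREB-KO arrays and at 0.23, -0.030 and 0.48 on the CREB-WT arrays. The CREB-KO array 1 was the lowest of the 6 for 15 of 21 beta segments (71.4%) and for 38 of 85 alpha segments (44.7%), against 15.9% of all clusters. The highest array was the CREB-WT array 3 for 10 beta segments (47.6%) and 28 alpha segments (32.9%), against 13.5% of all clusters. Without the CREB-KO array 1, the median pooled SD was 0.443 for the beta and 0.340 for the alpha segments. No value for all clusters without that array is given here, so the lower spread cannot be called particular to the segments.

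Other T cell genes on the same arrays are given for comparison. The mean signal of the 13 Treg markers was 12.28, 12.92 and 12.92 on the CREB-KO arrays and 12.44, 12.37 and 12.90 on the CREB-WT arrays. Cd4, the coreceptor used in the sort, read 12.98, 14.09 and 13.98 on the CREB-KO arrays and 13.68, 13.61 and 13.86 on the CREB-WT arrays, lowest on the CREB-KO array 1. Cd3e, a signalling subunit that every T cell receptor needs, read 16.78, 17.36 and 17.32 on the CREB-KO arrays. Its CREB-WT values were 17.10, 17.15 and 17.24, so it was also lowest on the CREB-KO array 1. Cd3g was highest there, at 15.66, against 15.59 and 15.56 on the other CREB-KO arrays and 15.39, 15.47 and 15.41 in CREB-WT. The mean over 13 CD3 and coreceptor genes was 12.49, 12.84 and 12.66 in CREB-KO and 12.77, 12.63 and 12.87 in CREB-WT. The macrophage and dendritic cell markers averaged 7.38, 6.37 and 5.76 on the CREB-KO arrays and 7.84, 7.24 and 6.46 on the CREB-WT arrays, so they were higher on the array numbered 1 in each group. The part of these differences in the signals of the segments was not tested.

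**Figure D4:**
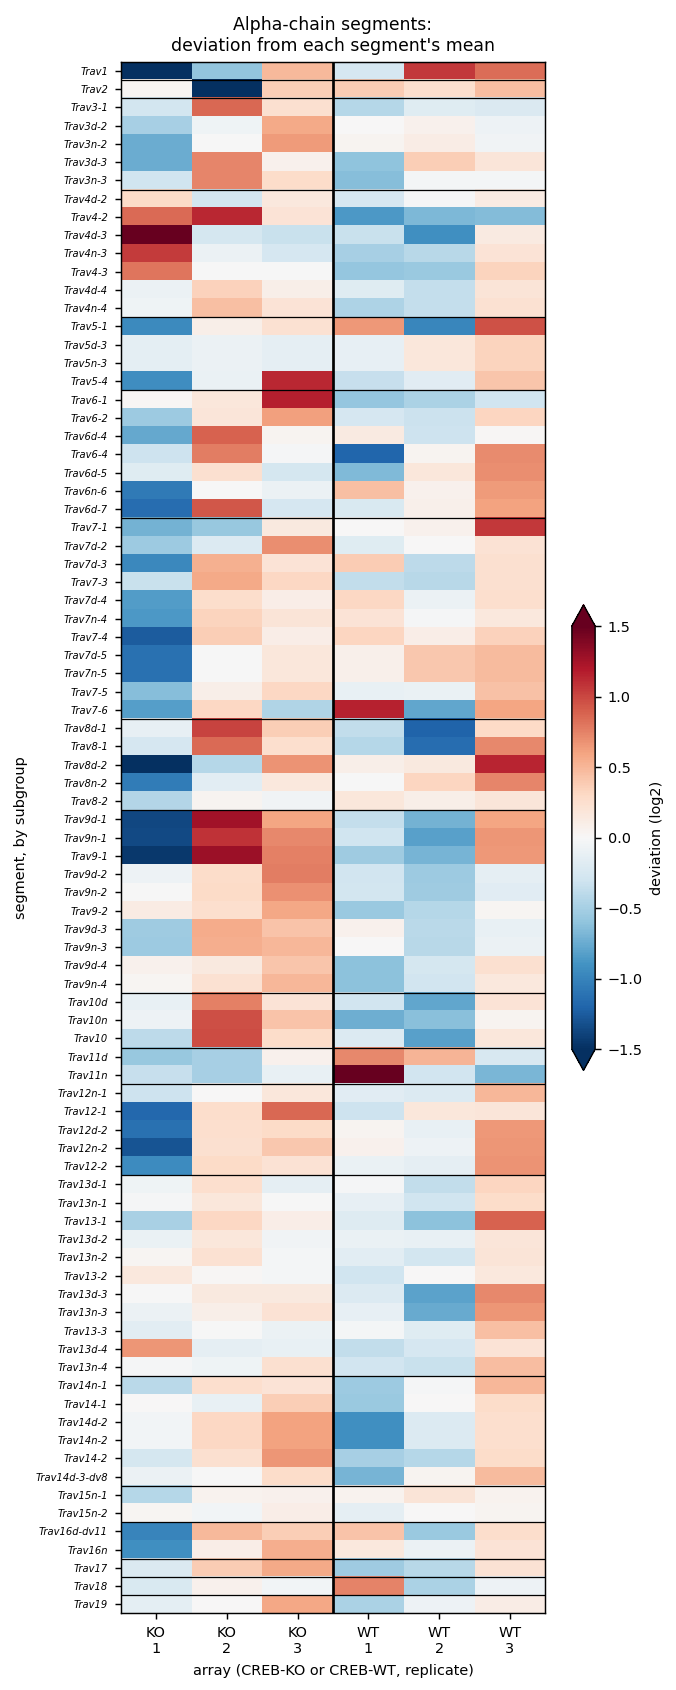
Deviation of each of the 85 alpha segments from its own mean over the 6 arrays (log2, colours saturating at the ends of the bar), with CREB-KO arrays left of the vertical line and CREB-WT arrays right, and horizontal lines between subgroups. The CREB-KO array 1 is the lowest array for 38 segments, while Trav4d-3 and its copies are highest there, and Trav9-1, Trav9d-1 and Trav9n-1 show like colours.

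For the comparison of CREB-KO with CREB-WT, each difference is the CREB-KO mean minus the CREB-WT mean in log2 units, tested with limma over all clusters. The study called a transcript regulated at a fold of at least 1.5 with an unadjusted p under 0.05. By these thresholds 6 of 85 alpha segments (7.06%) were higher in CREB-KO and none lower, and 3 of 21 beta segments (14.3%) were lower in CREB-KO and none higher. Over all clusters, 1.62% were called higher and 0.728% lower, and among the other clusters above the median of every array 2.69% were called higher and 1.3% lower. The alpha calls split as 5 higher and 1 lower after quantile normalization, as 4 higher and 2 lower after median centring, and as 3 higher and 6 lower after the common shift of each array over the segments of a chain was removed (chain centring, added after seeing the data). Over all clusters, 1.33% were called higher and 0.92% lower after quantile normalization, 1.21% and 1.03% after median centring, and 1.62% and 0.735% under chain centring, which shifts only the segments. The beta calls were 3 higher and 2 lower under chain centring, which also removes any group difference that the segments of a chain share. The alpha calls also changed with the arrays used: there were 13 higher and 0 lower without the CREB-KO array 1, 1 higher and 6 lower without the CREB-KO array 3, 2 higher and 1 lower without the CREB-WT array 1, 1 higher and 3 lower without the CREB-WT array 2, and 17 higher and 1 lower without the CREB-WT array 3. The beta calls were all lower without any single array, at 2 to 6 segments. Over all clusters, these fits called 1.47% to 2.45% higher and 0.784% to 1.27% lower.

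After Benjamini-Hochberg adjustment over all clusters, no segment passed 0.05 with limma, as was the case for all clusters together (0% called). The lowest adjusted p was 0.595 among alpha segments and 0.814 among beta segments. At an unadjusted p under 0.05 there were 6 alpha segments (7.06%) and 5 beta segments (23.8%), against 5.59% of all clusters. A fold of at least 1.5 in either direction was seen for 19 alpha segments (22.4%) and 5 beta segments (23.8%), against 5.43% of all clusters. Among the other clusters above the median of every array, these shares were 7.11% for the unadjusted p and 9.17% for the fold. For the counts of groups apart that follow, they were 6.57% above and 4.15% below. The groups did not overlap, with all CREB-KO arrays above, for 5 alpha segments (5.88%) and no beta segment, against a background of 7.87%. All CREB-KO arrays lay below for 2 alpha segments (2.35%), Trav6n-6 and Trav8-2, and for 5 beta segments (23.8%), Trbv10, Trbv13-2, Trbv15, Trbv23 and Trbv29, against a background of 3.29%.

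**Figure D5:**
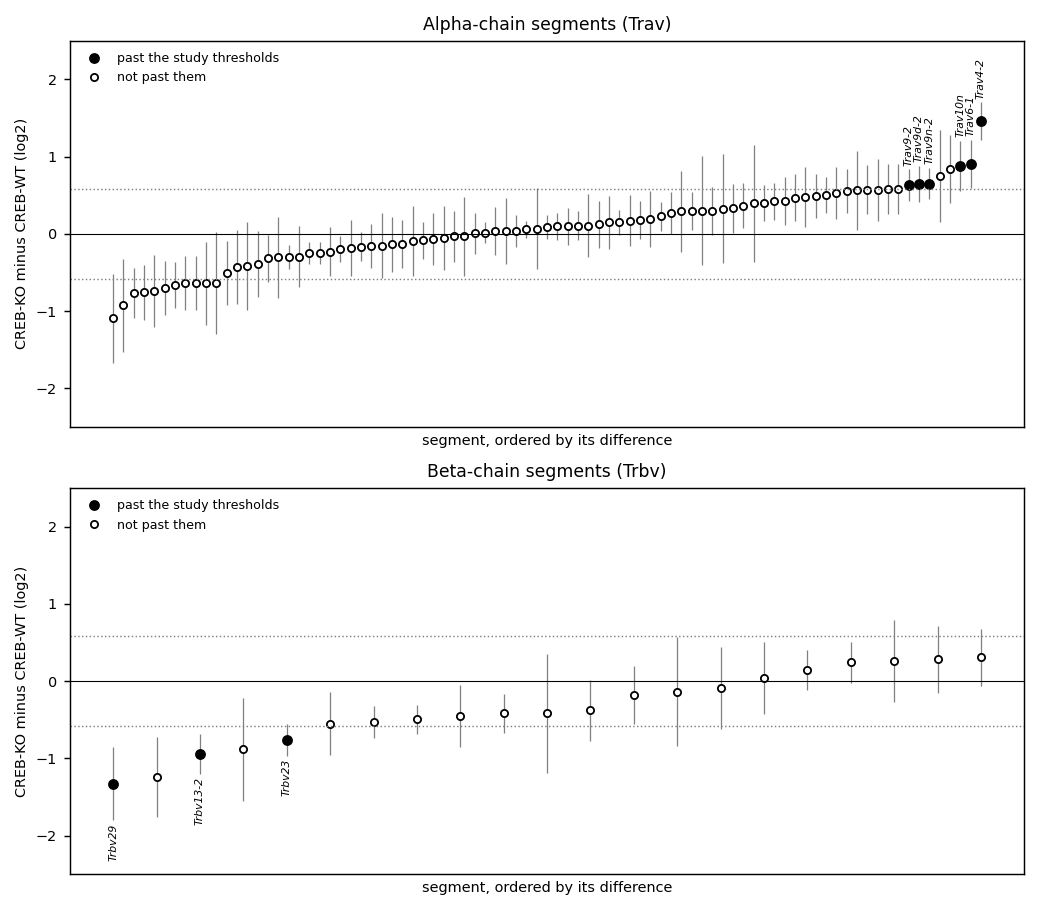
Difference CREB-KO minus CREB-WT (log2) with its limma SE for the 85 alpha segments (upper panel) and the 21 beta segments (lower panel), each ordered by its difference, with dotted lines at a fold of 1.5 and filled points for segments past the study's thresholds. The filled alpha points are all above 0, led by Trav4-2 at 1.46, and the filled beta points are all below 0, led by Trbv29 at -1.33.

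Trav4-2 had the largest difference of the alpha segments that were called. It read 10.41, 10.69 and 9.77 on the CREB-KO arrays, against 8.69, 8.88 and 8.91 on the CREB-WT arrays, which is 10.29 ± 0.47 in CREB-KO and 8.83 ± 0.12 in CREB-WT (SD, n = 3 each). The difference was 1.46 ± 0.25, or 2.75-fold, with an unadjusted limma p of 0.000821 and an adjusted p of 0.595. The groups did not overlap, and the call held when any single array was left out. Its only measured copy, the RefSeq pseudogene Trav4d-2, was not called: that cluster read 8.24, 7.68 and 8.11 on the CREB-KO arrays and 7.70, 7.94 and 8.08 in CREB-WT, a difference of 0.11 ± 0.19. The remaining Trav4 segments were not called, although all 7 members of the subgroup had differences above 0, from 0.11 to 1.46.

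The Trav9-2 set was called as a whole. Trav9-2 read 10.37, 10.49 and 10.82 on the CREB-KO arrays against 9.69, 9.82 and 10.28 in CREB-WT, a difference of 0.63 ± 0.20 (adjusted p = 0.846 with limma). Trav9n-2 differed by 0.65 ± 0.21 and Trav9d-2 by 0.65 ± 0.24. In each of these copies the lowest CREB-KO array lay above the highest CREB-WT array, by 0.069 to 0.17. The calls were not independent, and they were lost under several settings: without the CREB-KO array 3 the differences were 0.50 for Trav9-2, 0.47 for Trav9n-2 and 0.42 for Trav9d-2, below the fold threshold. The Trav9-2 call was also lost without the CREB-WT array 1 (0.51) or 2 (0.58), that of Trav9n-2 without the CREB-WT array 2 (0.55), and that of Trav9d-2 without the CREB-KO array 2 (0.67), the CREB-WT array 1 (0.66) or the CREB-WT array 2 (0.53). Under chain centring the differences of the set were 0.53 for Trav9-2 and 0.55 for each copy, and none was called. Trav9-2 also lost its call after quantile normalization (0.58), after median centring (0.57) and without both arrays numbered 1 (0.61), and Trav9d-2 after median centring (0.58), with a prior variance trend and by the methods' t-test. All 10 measured Trav9 segments had differences above 0, with a median of 0.41, and without any single array at least 7 of 10 still did.

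Trav10n and Trav6-1 made up the rest of the alpha calls. Trav10n read 10.51, 11.55 and 11.00 on the CREB-KO arrays against 9.85, 9.95 and 10.62 in CREB-WT, a difference of 0.88 ± 0.32 (adjusted p = 0.873 with limma) between groups that overlapped. Its copies Trav10 and Trav10d each differed by 0.57 and were not called. Trav6-1 read 9.30, 9.45 and 10.45 on the CREB-KO arrays against 8.70, 8.80 and 8.97 in CREB-WT, a difference of 0.91 ± 0.31 (adjusted p = 0.869 with limma). The CREB-KO array 3 stood about a log2 unit above the other CREB-KO arrays for Trav6-1, and without it the difference was 0.55 and not called. The call was also lost without the CREB-WT array 1 (0.84) or 2 (0.89). Trav10n lost its call at 0.62 without the CREB-KO array 2, 0.89 without the CREB-KO array 3, 0.73 without the CREB-WT array 1 and 0.79 without the CREB-WT array 2.

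Over the chain as a whole, the median alpha difference was 0.092, with 50 segments above 0 and 35 below, against a median of 0.049 over all clusters. The share above 0 was 58.8% of alpha segments and 60.4% of all clusters. It turned with single arrays, with 64 alpha segments above 0 and 21 below without the CREB-KO array 1, and 42 above and 43 below without either the CREB-KO array 2 or the CREB-WT array 2. The subgroups did not share a direction. Beside Trav9 and Trav4, all 6 Trav14 and all 3 Trav10 segments had differences above 0, whereas all 5 Trav12, both Trav11 and 10 of 11 Trav7 segments had differences below 0. Only Trav9, Trav10, Trav6 and Trav4 held a call. Without the CREB-KO array 1, all 5 Trav12 and 6 of 11 Trav7 segments had differences above 0, so their direction rests on that array. Without the CREB-WT array 1, 3 of 6 Trav14 segments and 1 of the 2 Trav11 segments had differences above 0, and the subgroup medians were 0.11 for Trav14, against 0.30 with all arrays, and -0.15 for Trav11, against -0.65 with all arrays. The lowest difference was that of Trav1, the segment of the invariant alpha chain of MAIT cells, with 7.17, 8.11 and 9.19 on the CREB-KO arrays against 8.46, 9.76 and 9.54 on the CREB-WT arrays. Its groups overlapped, and the difference of -1.09 ± 0.57 was not called. The letters made little difference: the median was 0.037 over 29 segments marked d, 0.078 over 26 marked n and 0.13 over 30 with neither.

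Among the beta segments, Trbv29 had the lowest difference. It read 6.32, 7.58 and 8.25 on the CREB-KO arrays, against 8.79, 8.44 and 8.91 on the CREB-WT arrays, which is 7.38 ± 0.98 in CREB-KO and 8.71 ± 0.25 in CREB-WT (SD, n = 3 each). The difference was -1.33 ± 0.47 (unadjusted p = 0.0293, adjusted p = 0.873, limma), with every CREB-KO array below every CREB-WT array. RefSeq annotates Trbv29 as a pseudogene, although it had signal on every array. The call was lost without the CREB-KO array 2, the CREB-WT array 1 or the CREB-WT array 3, at differences of -1.43, -1.29 and -1.23, and without both arrays numbered 1, at -0.76. It was also lost by the methods' t-test, as were the calls of Trav6-1 and Trav10n. Under chain centring Trbv29 differed by -0.87 and was called.

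Trbv13-2, a segment frequently used by mouse T cells, was lower in CREB-KO. Its values were 12.00, 12.57 and 12.56 on the CREB-KO arrays and 12.87, 13.51 and 13.58 on the CREB-WT arrays, or 12.38 ± 0.33 in CREB-KO and 13.32 ± 0.39 in CREB-WT (SD, n = 3 each). The groups did not overlap, and the difference of -0.94 ± 0.25 (unadjusted p = 0.00893, adjusted p = 0.814, limma) kept its call when any single array was left out. Under chain centring it was -0.49 and below the fold threshold. The neighbouring Trbv13-1 and Trbv13-3 differed by -0.55 ± 0.41 and -0.09 ± 0.53 and were not called.

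Trbv23 lay close to the array median. It read 4.79, 4.74 and 5.12 on the CREB-KO arrays against 5.76, 5.26 and 5.90 in CREB-WT, which differ by -0.76 ± 0.21 (limma, unadjusted p = 0.0094, adjusted p = 0.814). The groups did not overlap, and the call was lost without both arrays numbered 1, at -0.65, as well as under chain centring. Just outside the thresholds lay Trbv12-2, with 9.77, 10.89 and 11.44 on the CREB-KO arrays against 11.86, 11.29 and 12.68 on the CREB-WT arrays and a difference of -1.24 ± 0.51. Trbv12-2 was called without the CREB-KO array 3 (-1.61) or the CREB-WT array 2 (-1.57), and not without any other single array. It was also called after quantile normalization and median centring (-1.31 in each) and under chain centring (-0.79). With a replicate block or a prior variance trend the difference of -1.24 was called as well. Trbv15 and Trbv10 had unadjusted p-values of 0.0365 and 0.043 at differences of -0.50 and -0.53, which are smaller than a fold of 1.5.

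The median difference over the beta segments was -0.42, with 15 of 21 segments below 0 and 6 above, against 0.049 over all clusters. This value rests on the CREB-KO array 1. Without that array the median was 0.0096, with 11 segments above 0 and 10 below, whereas leaving out any other array gave 14 to 18 segments below 0. Trbv16, Trbv21, Trbv24, Trbv19, Trbv20 and Trbv31 had differences above 0, the largest of them 0.31 ± 0.37 for Trbv16, and none was called. Under chain centring Trbv16, Trbv19 and Trbv20 differed by 0.76, 0.70 and 0.60 and were called higher, against 0.31, 0.24 and 0.14 as deposited. The beta and alpha medians were not tested against each other.

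Segments of the NKT cell receptor were set side by side after their values had been seen. Those of the MAIT cell receptor were not examined as a set. Trbv13-2, Trbv29 and Trbv1 are the beta segments that pair with the Trav11 chain in mouse NKT cells, and conventional T cells use them as well. For Trbv29 this common knowledge and the RefSeq annotation as a pseudogene conflict, and the arrays do not settle it. Differences were -0.94 for Trbv13-2, -1.33 for Trbv29, -0.45 for Trbv1, -0.66 for Trav11d and -0.64 for Trav11n. Of these, Trbv13-2 and Trbv29 were called. The difference of Trbv1 was close to the median of -0.42 over all beta segments. Single arrays turned 2 of the listed differences, Trbv1 to 0.016 without the CREB-KO array 1 and Trav11n to 0.16 without the CREB-WT array 1. Trav11d was called lower without the CREB-KO array 3 (-0.86), without the CREB-WT array 3 (-0.94) and after median centring (-0.72). Zbtb16, the transcription factor that defines the NKT lineage, stayed near the array median, at 4.42, 4.67 and 4.43 on the CREB-KO arrays and 4.43, 4.37 and 4.36 in CREB-WT. Of 12 markers of gamma delta, NKT and MAIT cells, 7 had a cluster of their own, 3 of them were above the median on all arrays and 1 on none, and none was called. Differences were above 0 for 5 of the 7 and below 0 for 2, with a median of 0.083. The brightest was Maf, with a mean of 13.30 over the 6 arrays. The mean signal of these markers ranged from 6.46 to 6.67 on the CREB-KO arrays and from 6.44 to 6.53 on the CREB-WT arrays.

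The partners of the variable segments were examined from fixed lists. None of the 8 constant-region genes had a cluster of its own. Of 14 CD3 and coreceptor genes, 13 were measured, 3 had differences above 0 and none was called. The other 10 had differences below 0, and the median over the 13 was -0.041. Cd3e differed by -0.01 ± 0.18, Cd3d by 0.13 ± 0.19, Cd3g by 0.18 ± 0.10 and Cd247 by -0.39 ± 0.15. Every CREB-KO array lay below every CREB-WT array for Cd247 and Thy1 (-0.23 ± 0.15), and above for Cd3g. Such groups lay apart below for 3.29% and above for 7.87% of all clusters. Of 11 measured genes for V(D)J recombination and end joining, none was called. Rag2, a subunit of the recombinase that cuts the segments during T cell development, was below the median of every array. Among 18 measured regulators of the receptor loci, the factors Creb1 (0.90 ± 0.25) and Crem (1.17 ± 0.16), which bind the same DNA element, were called higher in CREB-KO and none was lower. Of 13 measured Treg markers, 2 were called higher and none lower. These were Itgae (1.60 ± 0.59), an integrin subunit that binds E-cadherin, and Nt5e (1.07 ± 0.12), the ectoenzyme CD73. Over all clusters 1.62% were called higher and 0.728% lower, or 2.69% and 1.3% of the other clusters above the median of every array. These shares are the background for the lists that follow too.

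Markers of other cells were read on the same arrays. Of 12 measured B cell markers, Cd72 was called lower in CREB-KO, at -1.52 ± 0.42, and 10 had differences below 0. Their mean signal ranged from 6.26 to 6.44 on the CREB-KO arrays and from 6.47 to 6.75 on the CREB-WT arrays, with 8 above the median on all arrays and 2 on none. Of the 16 macrophage and dendritic cell markers, 14 had differences below 0, the median was -0.56, and Itgax was called lower at -0.59 ± 0.23. Of 13 measured CD8 T and NK cell markers none was called, 9 were above the median on all arrays and 1 on none, and their mean signal ranged from 6.36 to 6.55 on the CREB-KO arrays and from 6.38 to 6.81 on the CREB-WT arrays. The part of such cells in the differences of the segments was not tested.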

How the data were processed

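The deposited table held log2 expression values per transcript cluster, which the authors normalized and summarized with RMA, per the submitters' processing notes (no version is named in the sources used here). The design text names MTA 1.0 arrays, while the paper's methods name another Affymetrix array, so the array type rests on the table's cluster identifiers. All columns were used as deposited, with cluster names from the platform annotation. Of 65956 clusters, 30638 had 1 symbol. RefSeq (GRCm38.p6) served for names, biotype and order only, and all 106 segments matched by symbol. No source used here names the array's build.

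CREB-KO and CREB-WT were compared with limma 3.58.1 (lmFit and eBayes, two-sided) in R 4.3.3, with Benjamini-Hochberg adjustment over all clusters. Summaries used Python 3.11.15. The fit was tested on simulated data. Members, lists and tests were chosen with earlier results of these data known. Named segments are those past the study's thresholds, the 8 with the highest mean and the 5 with the largest spread per chain, and their copies. Others were named after their values were seen. With 3 arrays against 3, an exact permutation test cannot go below 0.1. Alternatives were each array left out, both arrays numbered 1 left out, quantile normalization, median centring, a replicate block, a prior trend, the methods' t-test, filters, member definitions and, added later, chain centring and a single segment per set of copies. A search of promoter motifs was planned and not run, since the reference tables used here gave no window for these segments.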

Additional observations from a re-analysis of the deposited data

How the results depend on the processing

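No segment of either chain passed an adjusted p of 0.05 under any alternative run. The counts of segments past the study's thresholds moved more. For the alpha chain (6), leaving out single arrays gave 3 to 18, with 13 without the CREB-KO array 1, 3 without the CREB-WT array 1 and 18 without the CREB-WT array 3. The methods' t-test gave 3, but it also called fewer of all clusters, 0.973% higher and 0.373% lower against 1.62% and 0.728% with limma. A single segment per set of copies, added after seeing the data, gave 3. That count is out of 46 sets, fewer than the alpha segments behind the 6, so the counts cannot be compared directly. For the beta chain (3), leaving out single arrays gave 2 to 6, with 5 without the CREB-KO array 3 and 6 without the CREB-WT array 2. Without both arrays numbered 1 the count was 1, after median centring 5, and after chain centring, also added later, 5. Over all clusters, the fit without both arrays numbered 1 called 2.25% higher and 1.28% lower. The beta median difference of -0.42 ranged from -0.56 to 0.0096 without single arrays, and was 0.017 without both arrays numbered 1. After chain centring it was 0.041. That setting also removes a group difference shared by the chain, so this value was largely fixed by the setting itself. The cause of these shifts was not tested. With the replicate number as a block, 12 alpha segments (6 higher, 6 lower) and 4 beta segments (all lower) passed the thresholds, with 2.05% of all clusters higher and 1.04% lower. Deviations of same-numbered arrays correlated at 0.22, 0.018 and 0.041 over clusters, and the labels name no shared litter or day, so the numbers were not taken as pairs. What the arrays numbered 1 share beyond that was not tested. For 41 named segments, 557 values under the alternatives kept their side of the thresholds, 35 lost a call, 23 gained one, and no called value changed sign. Signal near the array median, as for Trbv10, Trbv21 and Trbv23, limits what can be read from those segments.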

Other observations

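Other receptor segments were measured beside the alpha and beta variable segments. Of 18 joining segments of the alpha chain (Traj), 16 were above the array median on all arrays, and their differences ran from -1.02 to 1.09 with a median of 0.031. Of these, 1 was past the study's thresholds, against 1.62% of all clusters called higher and 0.728% lower. This was Traj46, with a difference of 0.86 ± 0.22 (adjusted p = 0.794 with limma). Traj47 had the widest spread among those listed here, reading 9.28, 14.01 and 13.14 on the CREB-KO arrays, and Traj61 read 7.11, 9.81 and 11.28 on the same arrays. Of 5 delta-chain variable segments, Trdv2-1 was lower in CREB-KO by the same thresholds, at -0.79 ± 0.29 (adjusted p = 0.873 with limma), beside the same shares of all clusters. The 3 gamma-chain variable segments Trgv7, Trgv5 and Trgv3 had means over 6 arrays of 3.52, 5.40 and 5.94 and were not called.

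Among the 22 clusters that name a segment together with another symbol, 1 was past the thresholds, against 1.62% of all clusters called higher and 0.728% lower. This cluster names Trbv17 and TCRB and read 9.45, 9.54 and 9.13 on the CREB-KO arrays against 9.66, 11.73 and 10.67 in CREB-WT, a difference of -1.31 ± 0.50 (adjusted p = 0.878 with limma).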
